A study of Mus musculus with 9 samples.

Results

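The Hox genes are homeobox transcription factor genes that lie in 4 clusters, called A to D, and are numbered by position within a cluster from 1 to 13. The 39 protein-coding Hox genes were taken by symbol from the 24594 genes of the count table, 11 in the A cluster, 10 in the B cluster and 9 each in the C and D clusters. They were measured in 3 groups of BG2 cells, a mouse mammary tumour line of the MMTV-NeuIresCre strain, in which the MMTV promoter drives the Neu oncogene and Cre recombinase in mammary epithelium. Clone 1 and clone 2 were Sox10 knockout clones, each grown out from a population edited with CRISPR guides against exon 3 of Sox10, and the control was the line as a bulk population, labelled wild type for Sox10 and named NTC in its library names. All 3 groups carry the MMTV-NeuIresCre transgene. Each group had 3 technical replicates of stranded, polyA-enriched RNA, and the labels do not say at which step the replicates parted. The p-values therefore measure only the spread between these libraries. With 1 bulk population and 2 single clones, the absence of Sox10 and the choice of a clone cannot be told apart.

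Hox proteins bind DNA through the homeodomain, usually together with TALE-class partners of the Pbx, Meis and Pknox families, and give cells of the embryo their position along the body axis. Within a cluster the order of the genes follows the order in which they are switched on, the low-numbered end first and nearest the head, with retinoic acid and Cdx factors as inducers, Trithorax proteins as keepers of the active state and Polycomb proteins as keepers of the silent state. Genes of the same number in different clusters are paralogs. In the mouse mammary gland the group 9 genes are needed for growth in pregnancy, and Hoxc6 is known from the gland's epithelium and stroma.

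Sox10, the targeted gene, had 6 counts over the libraries of clone 1 and 4 over those of clone 2, against 64135 over those of the control. Libraries held 65805296 to 83282841 counts, so that 3 counts over a group stood for 0.0142 CPM in clone 1, 0.0127 CPM in clone 2 and 0.0134 CPM in the control (CPM are counts relative to library size, scaled here by edgeR's TMM factors). On the first principal component, with 78.2% of the variance, both clones lay away from the control, and on the second, with 17.5%, they lay away from each other. Replicate 1 of every group stood apart on the third, with 1.20% (scores 18.4 to 20.5, against -14.0 to -4.02 for replicates 2 and 3). The labelled cell type is mammary epithelial, and 8 of 9 tested luminal markers fell in both clones, beside 29.4% of all genes tested. The summed level of 10 listed luminal markers was 1193 to 1349 CPM in clone 1 and 1448 to 1628 CPM in clone 2, against 6343 to 7591 CPM in the control. Krt8 and Krt18 made up most of this sum in every group. Epcam, a defining epithelial marker, had 7 counts in clone 1 and 0 in clone 2, against 147918 in the control. Gata3 passed in neither clone, at 86.2 CPM in clone 1 and 85.2 CPM in clone 2, against 88.9 CPM in the control. The summed level of 10 fibroblast markers was 1101 to 1176 CPM in clone 1 and 964 to 1162 CPM in clone 2, against 377 to 414 CPM in the control, most of it Fbln2 in every group, while Lum and Thy1 were at 0 in all 9 libraries. Summed basal markers ran from 25.3 to 27.4 CPM in clone 1 and 137 to 148 CPM in clone 2, against 3.63 to 5.56 CPM in the control. Krt14, with 135 CPM, made up most of the sum in clone 2, whereas Trp63 stood at 12.2 CPM in clone 1 and 0.786 CPM in clone 2, against 0.0751 CPM in the control. Leukocyte markers summed to 9.30 to 11.2 CPM in clone 1 and 43.4 to 45.9 CPM in clone 2, against 7.02 to 11.9 CPM in the control, mostly Cd68 in each group, with Ptprc at 0 in both clones and Cd3e at 0 throughout. Lyz2 was called higher in both, at 0.279 CPM in clone 1 and 6.36 CPM in clone 2, against 0.0277 CPM in the control. Endothelial markers summed to 15.9 to 18.1 CPM in clone 1 and 0.816 to 1.09 CPM in clone 2, against 0 to 0.108 CPM in the control. Kdr, with 16.2 CPM, made up nearly all of the sum in clone 1, where Pecam1, Cdh5 and Tek were near 0, and adipocyte markers stayed at or under 0.132 CPM in every library. Vwf, another endothelial marker, was called higher in both clones, at 0.628 CPM in clone 1 and 0.314 CPM in clone 2, against 0 CPM in the control. These shifts ran alongside the Hox changes below and their part in them was not tested. In bulk RNA, fewer cells of a type and less RNA per cell cannot be told apart.

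The results turned on 5 genes, Hoxa4 to Hoxa7 and Hoxb4. Reads can be shared between paralogs where their transcripts match, so matching stretches were counted. Across whole annotated transcripts, Hoxa4 shared no run of 30 bases with any other Hox gene. Hoxb4 shared 3 of 2516 runs of 50 bases, all of them with Hoxa6, and 23 runs of 30 bases with Hoxa3, Hoxa6, Hoxa7 or Hoxb3. Hoxa6 shared 30 of 845 runs of 30 bases with other Hox genes. The counts of the group 4 pair are therefore separable over nearly all of each transcript, while a few counts of Hoxa6 could in principle be reads of Hoxb4, which was not tested.

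In the control nearly all Hox counts came from the A cluster, and in both clones most came from the B cluster, chiefly from Hoxb4. Summed over its genes, the A cluster stood at 2.92 ± 0.380 CPM in clone 1 and 5.44 ± 0.446 CPM in clone 2, against 41.8 ± 2.04 CPM in the control (SD, n = 3 each). The B cluster ran the other way, at 7.06 ± 0.471 CPM in clone 1 and 9.64 ± 0.905 CPM in clone 2, against 0.262 ± 0.0871 CPM in the control. Of all Hox counts, pooled over the 3 libraries of a group, the A cluster held 29.1% in clone 1 and 36.1% in clone 2, against 98.9% in the control. The sum over all 39 genes was 9.98 ± 0.164 CPM in clone 1 and 15.1 ± 1.29 CPM in clone 2, against 42.3 ± 2.07 CPM in the control, and no library of a clone reached the lowest control library. All 9 genes of the D cluster were at 0 in all 9 libraries, and the C cluster gave 2 counts over the clones and 45 over the control libraries.

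**Figure D1:**
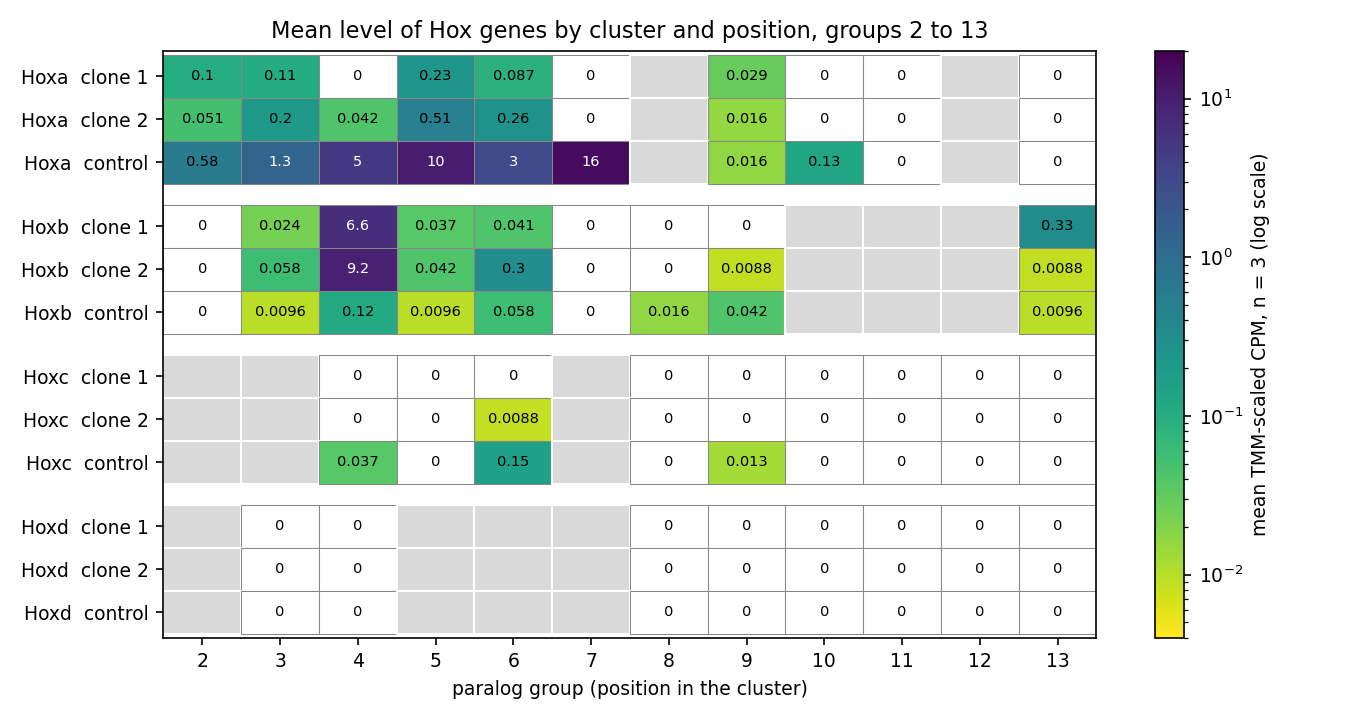
Mean TMM-scaled CPM (colour, log scale, with the value printed) of Hox genes by cluster and paralog group in clone 1, clone 2 and control, n = 3 libraries each; white cells are at 0 counts and grey cells mark positions with no gene. Paralog groups 2 to 13 are drawn. The filled stretch of the A cluster in the control, positions 2 to 7, is faint in both clones, where the darkest cell drawn is Hoxb4.

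Of the 39 genes, 20 had no count in any library, 10 passed the filter on low counts and could be tested, and 7 reached 1 CPM in a group mean. The filter keeps a gene that is high in 1 group only, so a gene such as Hoxb13 passed because of the group in which it was high. In clone 1 against the control, 2 of the 10 were higher, 7 lower and 1 did not pass (edgeR quasi-likelihood test, adjusted p under 0.05), where 76.5% of all 13928 genes tested were called, 37.9% higher and 38.6% lower. In clone 2 against the control, 2 were higher, 7 lower and 1 did not pass, where 74.4% of all genes were called, 37.3% higher and 37.1% lower. Hoxa2 to Hoxa7 were among the 7 that fell in both clones, against 29.4% of all genes called lower in both, and Hoxb4 rose in both, against 28.7% called higher in both. The 2 comparisons share the control libraries. The median log2 fold change of the 10 tested genes was -3.06 in clone 1 and -3.09 in clone 2, beside 0.0025 and -0.0027 over all genes tested. Setting Hoxa4 and Hoxa7 to their bounds where a clone had 0 counts does not move these medians.

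**Figure D2:**
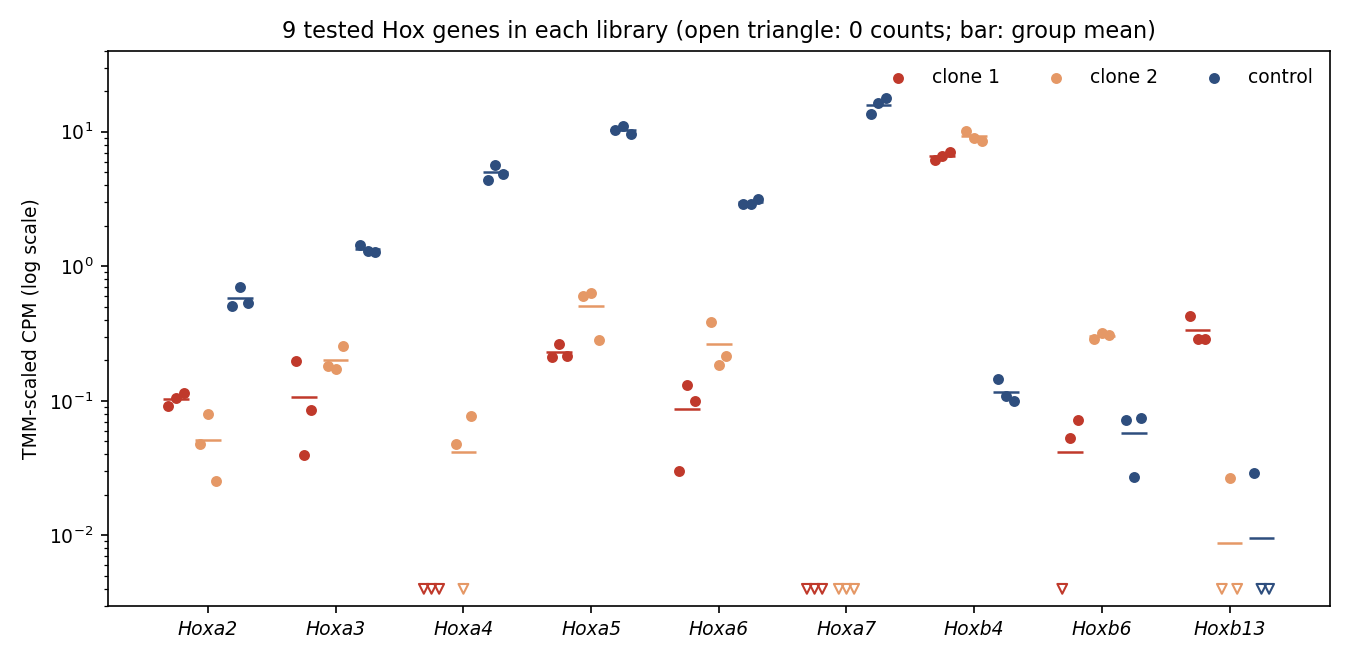
TMM-scaled CPM (log axis) of 9 tested Hox genes in each library, with clone 1, clone 2 and control from left to right for each gene; points are libraries, bars are means of 3 and open triangles at the foot are libraries with 0 counts. Hoxa2 to Hoxa7 lie lower in all 6 clone libraries than in any control library, and Hoxb4 lies higher in all 6.

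Near the low-numbered end of the A cluster, Hoxa2 and Hoxa3 fell in both clones. Hoxa2 (Entrez ID 15399; GRCm38 chromosome 6, 52162417 to 52164831, minus strand), a gene of the hindbrain and of the neural crest of the second arch, had 6, 8 and 8 counts in clone 1 and 4, 6 and 2 counts in clone 2, against 35, 52 and 43 counts in the control. Its log2 fold change was -2.46 ± 0.38 in clone 1 (adjusted p = 9.83e-05, edgeR) and -3.47 ± 0.41 in clone 2 (adjusted p = 1.32e-05, edgeR). On the same strand, exons of Gm28308 overlap 15.0% of the Hoxa2 exon length. Hoxa3 (Entrez ID 15400; 52169059 to 52213067, minus strand), needed for the thymus and parathyroid, had 13, 3 and 6 counts in clone 1 and 15, 13 and 20 counts in clone 2, against 99, 96 and 104 counts in the control. Both genes were low in the control and lower still in all 6 clone libraries. The log2 fold change of Hoxa3 was -3.65 ± 0.39 in clone 1 (adjusted p = 5.44e-06, edgeR) and -2.71 ± 0.35 in clone 2 (adjusted p = 2.53e-05, edgeR), which left 8.04% of the control level in clone 1 and 15.1% in clone 2. Its annotated span encloses Hoxa4 to Hoxa6 and 25.4% of its exon length lies opposite exons of other genes, and the sources used here do not give the strand setting of the counting.

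The middle of the A cluster, Hoxa4 to Hoxa7, held the most abundant Hox transcripts of the control by mean level per kilobase and, in clone 1, the deepest falls. In clone 2 the fall of Hoxa6 (log2 fold change -3.50 ± 0.30) was not distinct from that of Hoxa2 (-3.47 ± 0.41). Hoxa7 (Entrez ID 15404; 52215623 to 52218573, minus strand), a patterning gene of the thoracic skeleton also known from skin, had 0 counts in all 3 libraries of clone 1 and in all 3 of clone 2, against 930, 1205 and 1432 counts in the control. Taken against 3 counts over a group, Hoxa7 was lower by at least 1124-fold in clone 1 (adjusted p = 4.85e-08, edgeR). The same bound for clone 2 was at least 1258-fold lower (adjusted p = 4.54e-08, edgeR). Control libraries held 13.4, 16.3 and 17.7 CPM of it. No other Hox gene was as high in the control and empty in both clones. The noncoding gene Hoxaas3 lies opposite 20.4% of its exons.

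Hoxa4 (Entrez ID 15401; 52189682 to 52191703, minus strand), a gene of the cervical vertebrae, had 0 counts in all 3 libraries of clone 1 and 4, 0 and 6 counts in clone 2, against 303, 422 and 393 counts in the control. It was at least 352-fold lower in clone 1 (adjusted p = 2.05e-07, edgeR), and its log2 fold change in clone 2 was -6.83 ± 0.41 (adjusted p = 3.08e-07, edgeR). Exons of Gm29430 lie opposite 16% of the Hoxa4 exon length. Hoxa5 (Entrez ID 15402; 52201754 to 52204587, minus strand), needed for the lung and known in human breast cells as an activator of the p53 gene, had 14, 20 and 15 counts in clone 1 and 50, 48 and 22 counts in clone 2, against 709, 821 and 776 counts in the control. A trace of Hoxa5 thus remained in every clone library, 2.23% of the control level in clone 1 and 4.90% in clone 2. The log2 fold change of Hoxa5 was -5.47 ± 0.25 in clone 1 (adjusted p = 3.12e-09, edgeR) and -4.34 ± 0.22 in clone 2 (adjusted p = 8.58e-09, edgeR).

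Hoxa6 (Entrez ID 15403; 52204858 to 52208672, minus strand), which lies between Hoxa5 and Hoxa7, had 2, 10 and 7 counts in clone 1 and 32, 14 and 17 counts in clone 2, against 202, 216 and 255 counts in the control. Its log2 fold change was -5.04 ± 0.35 in clone 1 (adjusted p = 1.34e-07, edgeR) and -3.50 ± 0.30 in clone 2 (adjusted p = 7.15e-07, edgeR). All 6 clone libraries lay below all 3 control libraries. Hoxa5 and Hoxa6 overlap no exon of another gene in GENCODE M21. The annotation used for the counting is not given, so this holds for GENCODE M21 alone.

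Along the A cluster the share of the control level that remained did not fall evenly with position. In clone 1 it was 17.9% for Hoxa2, 8.04% for Hoxa3, 0% for Hoxa4, 2.23% for Hoxa5, 2.91% for Hoxa6 and 0% for Hoxa7. In clone 2 it was 8.79% for Hoxa2, 15.1% for Hoxa3, 0.834% for Hoxa4, 4.90% for Hoxa5, 8.75% for Hoxa6 and 0% for Hoxa7. Hoxa7 was at 0 in both clones, and Hoxa4 lay below Hoxa3 and Hoxa5 in both. These are ratios of group means, given as a description.

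Levels between genes were compared per kilobase of exon. In clone 1 Hoxb4 stood at 2.58 ± 0.189 CPM per kb, well above Hoxb13 at 0.151 ± 0.0358 CPM per kb, which overlapped Hoxa5 at 0.122 ± 0.0150 CPM per kb. Clone 2 had Hoxb4 at 3.59 ± 0.342 CPM per kb, well above Hoxa6 at 0.300 ± 0.122 and Hoxa5 at 0.269 ± 0.104 CPM per kb, which overlapped. In the control Hoxa7, at 5.50 ± 0.755 CPM per kb, and Hoxa5, at 5.49 ± 0.403 CPM per kb, overlapped, as did Hoxa6 at 3.43 ± 0.154 and Hoxa4 at 3.12 ± 0.422 CPM per kb. Hoxa2, at 0.327 ± 0.0604 CPM per kb, and Hoxa3, at 0.222 ± 0.0133 CPM per kb, lay well below and did not overlap. Per kilobase of the longest transcript Hoxa3 was the higher of this pair, at 0.516 CPM per kb in the control, against 0.327 CPM per kb for Hoxa2, so their order depends on the length used. With that length Hoxa7 stood at 7.78 CPM per kb in the control, above Hoxa5.

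Hoxb4 was the only Hox gene that rose in both clones and the highest of them there. Hoxb4 (Entrez ID 15412; chromosome 11, 96318267 to 96321638, plus strand), known for its part in the growth of blood stem cells, had 404, 507 and 495 counts in clone 1 and 849, 679 and 664 counts in clone 2, against 10, 8 and 8 counts in the control. Scaled, it stood at 6.62 ± 0.484 CPM in clone 1 and 9.22 ± 0.878 CPM in clone 2, against 0.117 ± 0.0241 CPM in the control. Every clone library held far more than every control library. The log2 fold change was 5.81 ± 0.18 in clone 1 (adjusted p = 1.07e-10, edgeR) and 6.29 ± 0.18 in clone 2 (adjusted p = 5.15e-11, edgeR). Its neighbours in the cluster did not share this level: Hoxb3 had at most 8 counts and Hoxb5 at most 4 in any library, and Hoxb1, Hoxb2 and Hoxb7 had none. No exon of Hoxb4 overlaps another gene in the annotation, whereas Hoxb3 lies opposite the noncoding gene Hoxb3os over 52.9% of its exons.

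The remaining tested genes of the B cluster each rose in 1 clone. Hoxb6 (Entrez ID 15414; chromosome 11, 96292814 to 96301569, plus strand) had 0, 4 and 5 counts in clone 1 and 24, 24 and 24 counts in clone 2, against 5, 2 and 6 counts in the control. Its log2 fold change was -0.44 ± 0.77 in clone 1 (adjusted p = 0.619, edgeR) and 2.36 ± 0.56 in clone 2 (adjusted p = 0.00263, edgeR). Clone 1 and the control overlapped, and both lay below clone 2. The sign in clone 1 turned when replicate 1 of clone 1 (0.09) or of all groups (0.25) was left out.

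Hoxb13 (Entrez ID 15408; chromosome 11, 96194316 to 96196610, plus strand), a gene of the prostate and of the end of the tail that lies apart from the rest of its cluster, had 28, 22 and 20 counts in clone 1 and 0, 2 and 0 counts in clone 2, against 2, 0 and 0 counts in the control. In clone 1 it was 37.0-fold higher than in the control (95% counting interval 9.87 to 312), with a fitted log2 fold change of 4.97 ± 0.84 (adjusted p = 0.00021, edgeR). Clone 2 and the control held 2 counts each, under the 3 counts taken as the floor, so no fold is given. Both transcripts stayed low: Hoxb13 reached 0.333 ± 0.0791 CPM in clone 1 and Hoxb6 0.304 ± 0.0150 CPM in clone 2. The intervals cover counting error only, and 73.1% of the file's values from 1 to 9 were even, against 49.8% of its much larger values, so that single counts at this level may not be single events.

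Within paralog group 4, Hoxa4 fell while Hoxb4 rose. Per kilobase, the 4 genes of group 4 gave a sum of 2.58 ± 0.189 CPM in clone 1 and 3.62 ± 0.339 CPM in clone 2, against 3.18 ± 0.411 CPM in the control. By library these sums were 2.39, 2.59 and 2.76 in clone 1 and 3.35 or more in clone 2, against 2.82, 3.10 and 3.63 in the control, so that clone 2 overlapped the control and clone 1 lay just below it. Group 5 gave 0.136 ± 0.0228 CPM per kb in clone 1 and 0.284 ± 0.109 CPM per kb in clone 2, against 5.50 ± 0.402 CPM per kb in the control. Group 6 stood at 0.121 ± 0.0758 CPM per kb in clone 1 and 0.458 ± 0.111 CPM per kb in clone 2, against 3.52 ± 0.129 CPM per kb in the control, and group 7 at 0 in both clones, against 5.50 ± 0.755 CPM per kb in the control. These sums were not tested.

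The high-numbered genes, positions 9 to 13, were near or at 0 in all groups. Hoxa9, a group 9 gene, had 4, 2 and 0 counts in clone 1 and 4, 0 and 0 counts in clone 2, against 0, 0 and 4 counts in the control, and Hoxb9 had 0 counts in clone 1 and 2 in clone 2, against 10 in the control. Hoxd9 had none. Hoxa10 had 0 counts in both clones, against 16, 4 and 8 counts in the control. Over the 16 genes of positions 9 to 13, the sum was 0.362 ± 0.107 CPM in clone 1, nearly all of it Hoxb13, and 0.0337 ± 0.0293 CPM in clone 2, against 0.209 ± 0.0991 CPM in the control. The genes with no count in any library were Hoxa11, Hoxa13, Hoxb1, Hoxb2, Hoxb7, Hoxc5, Hoxc8, Hoxc10 to Hoxc13 and the whole D cluster, a result that allows up to 0.0142 CPM in a group. On the same strand, other genes overlap 62% of the exon length of Hoxd3 and 52% of that of Hoxd4. Their counts also depend on how shared reads were treated, which was not tested. Hoxb8 had 4 counts, all in control replicate 3. In the C cluster Hoxc4, with 8 counts, and Hoxc9, with 3, had counts in control libraries alone. Hoxc6, the mammary gene of the cluster, had 0 counts in clone 1 and 0, 2 and 0 counts in clone 2, against 6, 24 and 4 counts in the control, so that control replicate 2 held most of them. Without the filter on low counts, Hoxa10 and Hoxc6 also passed as lower in both clones (edgeR adjusted p = 0.00911 and 0.0067 in clone 1, 0.00794 and 0.022 in clone 2).

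The clones differed from each other in 7 of the 10 tested Hox genes, where 57.6% of all genes were called. Clone 2 was higher than clone 1 in 6, against 30.1% of all genes, and lower in 1, against 27.5%. Hoxa5 (log2 fold change of clone 2 over clone 1 1.13 ± 0.31, adjusted p = 0.00868, edgeR) and Hoxa6 (1.55 ± 0.44, adjusted p = 0.0114, edgeR) were closer to the control in clone 2. The call of Hoxa6 was lost without replicate 1 of every group (0.78). Hoxa4, with 10 counts in clone 2 and 0 in clone 1, was at least 2.98-fold higher in clone 2 (adjusted p = 0.0355, edgeR), a call lost when clone 1 replicate 1, 2 or 3 or clone 2 replicate 1 or 3 was left out (adjusted p up to 0.101). Hoxb4 was higher in clone 2 by 0.48 ± 0.11 (adjusted p = 0.00367, edgeR). Hoxb6 was 7.15-fold higher in clone 2 (95% counting interval 3.56 to 16.3; adjusted p = 0.0021, edgeR) and Hoxb13 was 39.2-fold lower in clone 2 (95% counting interval 10.4 to 330; adjusted p = 0.000337, edgeR). Hoxa2 (-1.01 ± 0.51, adjusted p = 0.116, edgeR) and Hoxa3 (0.94 ± 0.47, adjusted p = 0.11, edgeR) did not pass, and Hoxa7 was at 0 in both. Hoxa3 passed without replicate 1 of clone 1 (1.69) or of every group (1.77).

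Of 11 noncoding genes of the clusters analysed, 2 could be tested, both in the A cluster, and both fell in both clones, as did 29.4% of all genes tested. Hotairm1, at the low-numbered end of the cluster, had 113, 126 and 90 counts in clone 1 and 139, 111 and 121 counts in clone 2, against 554, 543 and 691 counts in the control. Its log2 fold change was -2.36 ± 0.14 in clone 1 (adjusted p = 2.88e-08, edgeR) and -2.35 ± 0.14 in clone 2 (adjusted p = 2.91e-08, edgeR). Hoxaas2, opposite Hoxa3, had log2 fold changes of -2.44 ± 0.53 and -1.75 ± 0.48 (adjusted p = 0.00137 and 0.00633, edgeR). Hoxaas3, too low to test, had 0 counts in clone 1 and 0, 0 and 2 counts in clone 2, against 22, 8 and 22 counts in the control. Hotair of the C cluster and Hottip of the A cluster had no count in any library.

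Promoter sequences, 250 bases before to 50 bases after the gene start in RefSeq (GRCm38.p6), were at hand for 22 of the 39 Hox genes (24 promoters). Those of Hoxa5, Hoxa7 and Hoxb4 are shown, because Hoxa5 and Hoxa7 were the highest Hox genes of the control per kilobase and Hoxb4 that of both clones. Capitals mark matches, on either strand, to 4 motifs: ACAAAG and ACAATG, short forms of the Sox motif, TGATTNAT, a Pbx-Hox motif, and AGGTCA, the half-site of retinoid receptors.
Hoxa5, chr6:52204538-52204837, minus strand: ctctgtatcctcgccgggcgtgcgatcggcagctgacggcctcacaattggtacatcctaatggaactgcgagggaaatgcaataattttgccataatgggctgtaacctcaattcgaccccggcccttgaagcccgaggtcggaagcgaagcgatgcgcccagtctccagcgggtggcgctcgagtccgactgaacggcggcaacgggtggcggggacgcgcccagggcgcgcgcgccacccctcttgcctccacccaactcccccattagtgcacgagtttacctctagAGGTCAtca
Hoxa7, chr6:52218524-52218823, minus strand: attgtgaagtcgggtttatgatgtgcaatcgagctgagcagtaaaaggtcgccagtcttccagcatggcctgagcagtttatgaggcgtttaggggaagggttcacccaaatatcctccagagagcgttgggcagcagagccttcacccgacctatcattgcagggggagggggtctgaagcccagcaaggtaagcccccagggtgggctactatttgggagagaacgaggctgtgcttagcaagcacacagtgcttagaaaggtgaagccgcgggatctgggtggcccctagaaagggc
Hoxb4, chr11:96318017-96318316, plus strand: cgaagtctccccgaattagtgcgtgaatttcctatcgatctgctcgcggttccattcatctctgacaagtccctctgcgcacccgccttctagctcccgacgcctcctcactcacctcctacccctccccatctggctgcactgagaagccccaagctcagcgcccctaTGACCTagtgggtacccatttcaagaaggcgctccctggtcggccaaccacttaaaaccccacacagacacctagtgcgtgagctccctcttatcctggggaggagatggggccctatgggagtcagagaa
Hoxa5 and Hoxb4, which moved in opposite directions, each held 1 AGGTCA match, and Hoxa7 held no match to any of the 4. ACAAAG was found in 6 of the 24 Hox promoters (25%), against 18.7% of 32851 promoters of all genes and 14.3% of those of genes tested here. In the same order, ACAATG was found in 0 (0%), against 12.6% and 7.54%. TGATTNAT was in 2 (8.33%), against 3.22% and 1.49%, and AGGTCA in 7 (29.2%), against 16.3% and 12.9%. Hox promoters had a median of 14.5 CpG sites (range 4 to 45), against 7 for all promoters and 19 for those of genes tested here. The promoters shown had 29 CpG sites for Hoxa5, 9 for Hoxa7 and 14 for Hoxb4. A match is a description of the letters in these windows only.

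The tested genes nearest the A, C and D clusters had log2 fold changes of less than 1 in size, and those nearest the B cluster reached larger ones. Skap2, the nearest tested gene beyond the low-numbered end of the A cluster and an adaptor of blood cell signalling, fell in clone 1 (-0.84) and in clone 2 (-0.99), and Hibadh, an enzyme of valine breakdown beyond the other end, fell in clone 1 (-0.56) and rose in clone 2 (0.23). Among the 10 nearest tested genes of the A cluster, clone 1 had 6 lower and 0 higher, and clone 2 had 5 lower and 1 higher, which is 60% called in each clone beside 76.5% and 74.4% of all genes. Further out, deep falls lay on both sides of the A cluster, in genes chosen after their values were seen. On the Skap2 side, Nfe2l3 fell in both clones (-8.96 and -9.98). On the Hibadh side, Tril had 0 CPM in both clones, against 90.2 CPM in the control. Creb5 (-8.71 and -2.44) and Chn2 (-10.1 and -3.34), also on that side, fell in both. Around the B cluster, Ttll6 on the Hoxb13 side rose in clone 1 (1.73) and did not pass in clone 2 (-0.45), and Skap1 on the Hoxb1 side, low throughout, fell in both (-5.91 and -3.11). Next to the C cluster, Calcoco1 had -0.10 and -0.72 and Smug1 -0.14 and -0.23, which passed in clone 2 and missed the threshold in clone 1. Smug1 also passed in clone 1 in 5 of the alternatives, and Calcoco1 in 2. Next to the silent D cluster, Lnpk (0.23 and 0.11) and Mtx2 (-0.04 and 0.07) passed in neither clone, though Lnpk passed in clone 1 with the replicate block (0.23), without control replicate 1 (0.40) and without replicate 1 (0.24). Among the 10 nearest tested genes of the D cluster, clone 1 had 6 lower and 0 higher (60% called). Clone 2 had 4 lower and 0 higher (40% called). Agps (-1.19 and -1.01) and Ttc30b (-1.16 and -1.30), also named after their values were seen, fell in both clones. So did the low genes Chn1, at 0 CPM in both clones against 0.473 CPM in the control, and Chrna1os, at 0 and 0.0208 CPM against 0.279 CPM. The median log2 fold change of all tested genes was -0.24 in clone 1 and 0.09 in clone 2 on chromosome 6, which carries the A cluster, and 0.03 and -0.0045 on chromosome 11, which carries the B cluster. Hoxa4 to Hoxa7 lay at -3.50 or lower in either clone, and Nfe2l3, Tril, Creb5 and Chn2 also lay far below the chromosome 6 medians. All were named with their values known, so this distance is a description, and its cause was not tested.

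**Figure D3:**
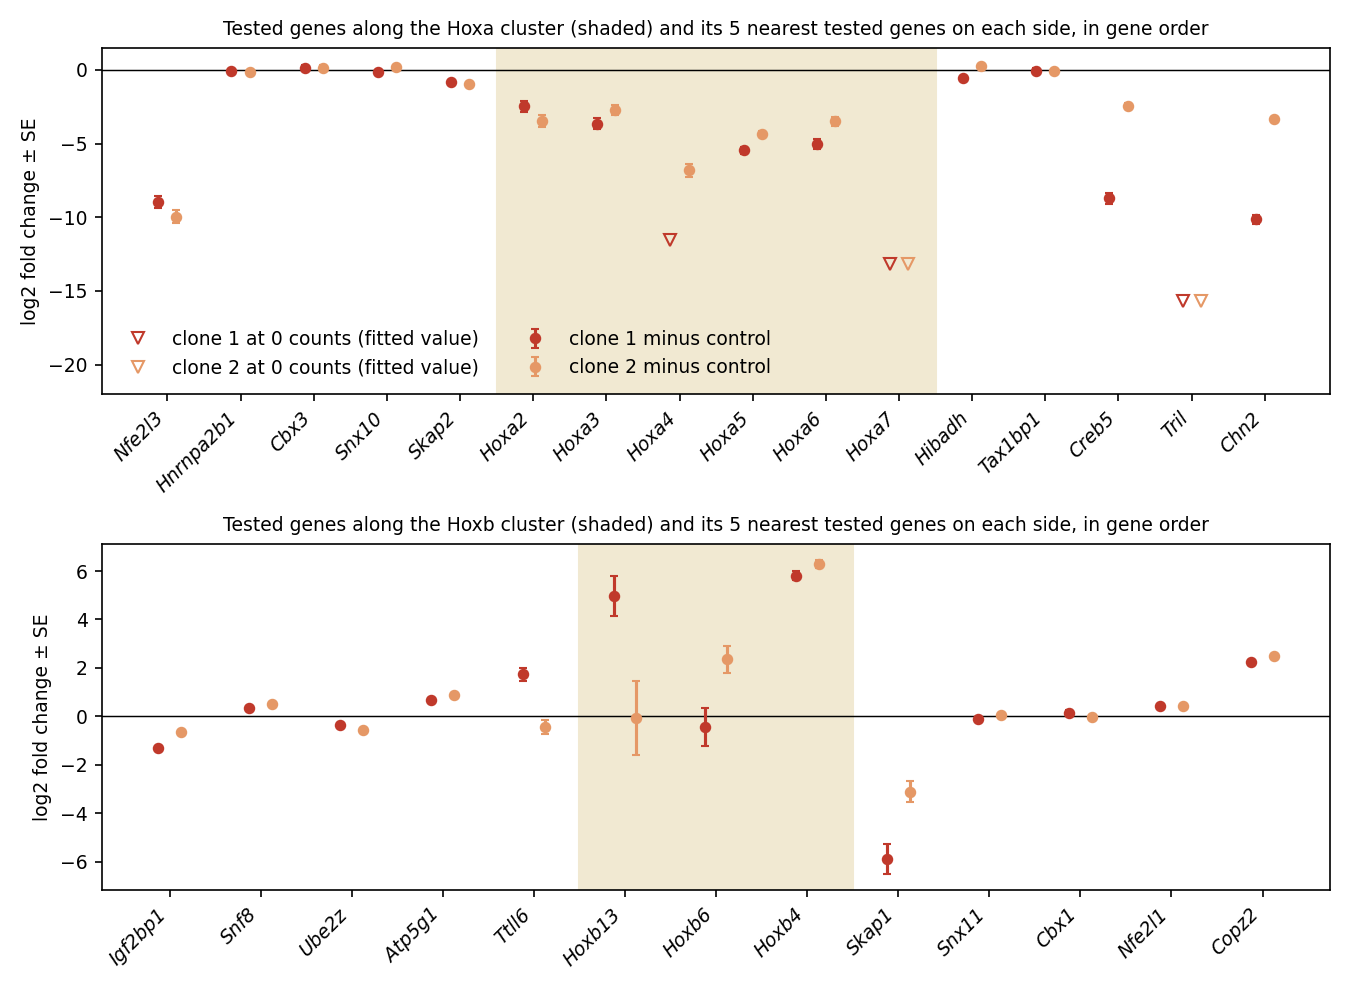
Log2 fold change against the control ± SE (y axis) of tested genes of the A cluster (top) and B cluster (bottom), shaded, with the 5 nearest tested genes on each side in gene order (x axis, not to scale); red is clone 1 and orange clone 2, and open triangles are fitted values of genes at 0 counts in that clone, which are no bounds. Hoxa2 to Hoxa7 lie at -2.46 or lower, and the nearest flanking genes, Skap2 and Hibadh, between -0.99 and 0.23. Further out, Nfe2l3, Creb5, Tril and Chn2 lie at -2.44 or lower in both clones, and the remaining flanking genes of the A cluster between -0.99 and 0.23.

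Among the 9 TALE partners of Hox proteins, all tested, clone 1 had 5 higher and 3 lower, and clone 2 had 6 higher and 2 lower (edgeR, as for all lists here), with a median log2 fold change of 0.59 in clone 1 and 0.58 in clone 2. Over all genes tested, 37.9% were higher and 38.6% lower in clone 1, and 37.3% higher and 37.1% lower in clone 2. The 88.9% of partners called in each clone stood beside 76.5% and 74.4% of all genes. Pknox2 rose by log2 fold changes of 5.47 ± 0.23 (clone 1) and 4.94 ± 0.24 (clone 2), and Meis2 by 2.61 ± 0.08 and 1.75 ± 0.08. Meis2 stood at 35.0 ± 3.22 CPM in clone 1 and 19.4 ± 0.859 CPM in clone 2, against 5.75 ± 0.126 CPM in the control. Meis1 (1.23 and 0.80) and Meis3 (0.99 and 1.20) rose too. The partners that rose in both clones were thus Meis1, Meis2, Meis3, Pknox2 and Pbx3, and Pbx2 and Pbx4 fell in both.

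Among 11 tested genes of retinoid supply and response, of 19 listed with the Cdx genes, clone 1 had 5 higher and 6 lower, and clone 2 had 3 higher and 6 lower, with medians of -0.26 and -0.27. The shares called were 100% in clone 1 and 81.8% in clone 2, beside 76.5% and 74.4% of all genes. Rarb, a retinoic acid receptor gene that is itself induced by retinoic acid, fell in both clones and stood at 1.39 ± 0.0340 CPM in clone 1 and 0.215 ± 0.156 CPM in clone 2, against 7.39 ± 0.678 CPM in the control. Crabp2, a carrier of retinoic acid to its receptors, and Cyp26b1, which breaks retinoic acid down, rose in both clones (5.20 and 4.44 for Crabp2, 2.25 and 3.10 for Cyp26b1, on the log2 scale). Aldh1a1, named after its values were seen, rose in clone 1 (2.63) and did not pass in clone 2 (-0.03). Its level was 148 ± 1.78 CPM in clone 1 and 23.5 ± 0.622 CPM in clone 2, against 24.0 ± 0.672 CPM in the control. The Cdx genes, inducers of the trunk Hox genes, were at or near 0 in every group and could not be tested.

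Among 21 Polycomb genes, clone 1 had 8 higher and 9 lower, and clone 2 had 9 higher and 8 lower, with medians of -0.11 and -0.10. The 81.0% called in each clone was near the 76.5% and 74.4% of all genes. Phf19, which links the PRC2 complex to chromatin, had the largest change of the list: it stood at 29.0 ± 2.04 CPM in clone 1 and 39.5 ± 1.99 CPM in clone 2, against 0.860 ± 0.0778 CPM in the control (log2 fold changes 5.07 ± 0.10 and 5.52 ± 0.10). Bmi1 (1.53 and 1.04) and Aebp2 (1.15 and 1.03) rose, Phc2 fell (-1.58 in each clone), and Jarid2 was called in opposite directions (0.56 and -0.72). Ezh2, named as the catalytic subunit, fell in clone 1 (-0.38) and did not pass in clone 2 (0.07). Among 11 Trithorax genes, clone 1 had 1 higher and 6 lower, and clone 2 had 2 higher and 5 lower, with medians of -0.23 and -0.21, and the 63.6% called in each clone was below the 76.5% and 74.4% of all genes. Their changes were small, with a median absolute log2 fold change of 0.23 in clone 1 and 0.25 in clone 2. Kmt2b had -0.68 and -1.01, Men1 -0.65 and -0.70, Dpy30 -0.47 and -0.25, Kdm6b -0.37 and -0.34, and Rbbp5 -0.37 and 0.20.

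Some homeobox genes outside the clusters also fell to near 0. Among 9 tested genes of the Dlx, Msx and sine oculis families, clone 1 had 3 higher and 6 lower, and clone 2 had 2 higher and 7 lower, with medians of -1.03 and -0.88. All 9 were called in each clone, beside 76.5% and 74.4% of all genes. Msx2 had 1 count in clone 1 and 0 in clone 2, against 1170 in the control, and Msx1 had 8 in clone 1 and 4 in clone 2, against 1113 in the control, both being genes of epithelial appendages. Dlx3, a gene of skin and placenta, had log2 fold changes of -4.39 ± 0.40 and -8.54 ± 0.61, and Dlx4 was called in opposite directions (0.52 and -0.74). Of 10 other homeobox genes linked to the Hox clusters or related to them, among them Evx1 and Evx2, only Gbx1 could be tested, and it passed in neither clone. Dlx1 (5.54 and 4.55) and Msx3 (4.86 and 1.39), named after their values were seen, rose in both clones.

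**Figure D4:**
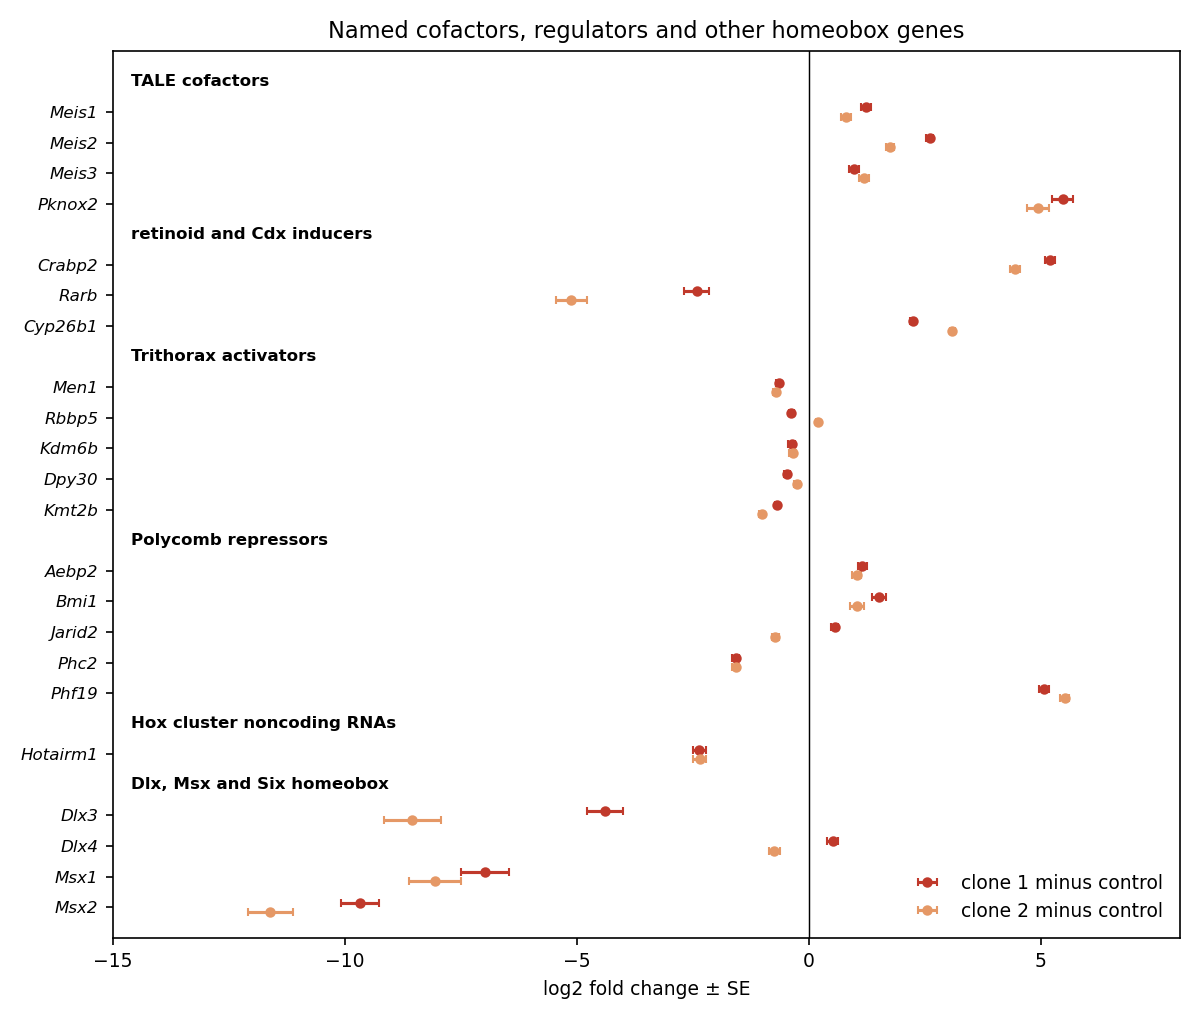
Log2 fold change against the control ± SE (x axis) of named members of each list, red for clone 1 and orange for clone 2; fitted values of genes near 0 counts, such as Msx2, are no bounds. Rarb, Msx1, Msx2 and Dlx3 lie far to the left, Pknox2, Crabp2 and Phf19 to the right, and Trithorax genes near 0.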

How the data were processed

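RNA sequencing of 9 BG2 libraries gave whole-number counts per gene, deposited by the authors without normalization. Per the submitters' processing notes, fastp, Subread and DESeq2 were used with builds mm10 and GRCm38, with no versions. The sources used here do not give the annotation or the strand setting. In no library did the 24 genes without a symbol hold more than 0.202% of the counts, and total counts ran from 65805296 to 83282841.

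Genes were kept by filterByExpr (minimum count 10; 13928 of 24594), scaled by TMM and fitted with edgeR 4.0.16 (R 4.3.3, limma 3.58.1) in a quasi-likelihood model of 3 groups over 9 libraries, with Benjamini-Hochberg adjusted p under 0.05 as the call. The common biological coefficient of variation was 0.0878. Error values are SD over 3 libraries for levels and approximate standard errors for log2 fold changes. A fold against a group at 0 is a bound against 3 counts over that group. Such bounds and intervals cover counting error alone and take each count as a single event. The reads carry no molecular identifiers, and 73.1% of values from 1 to 9 were even, so bounds and intervals may be too tight. Replicates of a group differed beyond sampling noise (chi-square per degree of freedom 5.33 to 47.6). Exon lengths came from GENCODE M21, with the union of exons as length, and promoters from RefSeq.

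The members and lists were chosen with earlier results of these data known. Members with at least 1 CPM in a group are given in full. So are, per list, up to 4 genes that reach 1 CPM in a group and have the largest mean change, those called in opposite directions, and the nearest tested gene on each side of a cluster. Some genes and sequences are not reported here, and counts and sums over lists and clusters include them. The fit was tested on simulated data. The alternatives were RLE factors, no factors, DESeq2 1.42.0, no filter, a filter of 1 CPM in 3 libraries, the replicate block, only the groups compared, each library left out, replicate 1 left out, glmTreat at a log2 fold change of 1 and the longest transcript as length.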

Additional observations from a re-analysis of the deposited data

Results flagged for a closer look

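The clones differed from each other, by the edgeR test of clone 2 minus clone 1, in the 6 Hox genes given here, and each difference is between 2 single clones. On the log2 scale these were Hoxa4 (4.71, a fitted value with clone 1 at 0 counts), Hoxa5 (1.13), Hoxa6 (1.55), Hoxb4 (0.48), Hoxb6 (2.80) and Hoxb13 (-5.04). In all 5 with a positive value every library of clone 2 lay above every library of clone 1, except in Hoxa4, where clone 2 replicate 2 was also at 0. The genes were picked by this same test, so the separation of their libraries is a description and adds no support. Of all genes tested, 57.6% were called between the clones. Hoxb13 ran the other way, with 20 to 28 counts in clone 1 libraries and at most 2 in clone 2 libraries. With 1 clone on each side, what sets these clones apart was not tested.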

How the results depend on the processing

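Of 509 recomputed values of single Hox genes over 18 alternatives, 484 kept their direction and side of the threshold, 17 lost the call, 2 gained it and 6 turned sign. None of the 6 was called: Hoxb6 in clone 1 was 0.09 without clone 1 replicate 1 and 0.25 without replicate 1 of all groups, and Hoxb13 in clone 2 was 2.60, 0.47 and 0.43 without control replicate 1, clone 2 replicate 1 and clone 2 replicate 3, and 3.15 without replicate 1. Leaving out single libraries, Hoxb6 in clone 1 ran from -1.01 to 0.09 and Hoxb13 in clone 2 from -2.68 to 2.60. Among other genes, Calcoco1 in clone 1 ran from -0.24 to 0.016, Mtx2 in clone 1 from -0.12 to 0.0053 and in clone 2 from -0.0094 to 0.094, and Lnpk in clone 2 from -0.023 to 0.27.

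Requiring 1 CPM in 3 libraries left 1 higher Hox gene in each clone against the control and 0 lower in clone 2 against clone 1, as fewer genes were tested. With glmTreat at a log2 fold change of 1, 3580, 3388 and 1186 of all genes were called (clone 1 and clone 2 against control, then clone 2 against clone 1), against 10653, 10367 and 8018. Of regulators and neighbours 30, 27 and 10 were called, against 78, 76 and 57. Of Hox genes 2 were called between the clones, Hoxb6 (1 higher) and Hoxb13.

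Without single libraries, 9 Hox genes were called in clone 1, 8 to 9 in clone 2 and 6 to 7 between the clones, with 10129 to 10843, 9886 to 10544 and 7030 to 8556 of all genes and 76 to 82, 74 to 80 and 50 to 62 regulators and neighbours. Same-numbered libraries correlated at 0.214 to 0.249 for replicate 1 and at 0.0143 to 0.108 for replicates 2 and 3, not all over 0.1, so the numbers were not read as pairs. The replicate block gave 9, 9 and 7 Hox genes, 11420, 11257 and 9439 of all genes and 88, 86 and 70 regulators and neighbours. Among the named genes it changed the calls of Smug1 and Lnpk in clone 1, which passed with it. Low counts limit Hoxb6, Hoxb13 and all genes of the C cluster.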
